A study of Mus musculus with 6 samples.

Results

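The protein subunits of the mitochondrial respiratory chain and ATP synthase that are encoded in the nucleus were followed at the mRNA level in 32D cells with and without the Nup98::Nsd1 fusion. Members were all probe sets of the Affymetrix Mouse430_2 array whose annotation gave 1 symbol alone and whose symbol followed the naming of the subunit families (Nduf with a, b, c, s or v and a number, Sdha to Sdhd, Uqcr, Cox4 to Cox8, Atp5). This gave 163 of the 45037 probe sets that are no controls, for 80 of 18193 gene symbols: 33 genes of complex I, 4 of complex II, 8 of complex III, 18 of complex IV and 17 of complex V. The rule itself uses no expression value, but it was set with earlier results of these data known.

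32D is an established mouse line of myeloid cells that grows in interleukin-3; the labels give its strain as C3H/HeJ and its origin as bone marrow infected with Friend leukemia virus. The control group was 3 samples of mock-transduced cells, labelled with the empty retroviral vector MSCVpuro. The other group was 3 samples of 32D cells carrying Nup98::Nsd1, a fusion of a nuclear pore gene with a histone methyltransferase gene that is known from acute myeloid leukaemia. All 6 samples share the cell line, each was hybridised to 1 array, and no label says whether the samples of a group came from separate cultures or transductions, so every p-value speaks only of the spread among these 6 samples, which may be technical.

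The chain passes electrons from NADH through complex I, or from succinate through complex II, to ubiquinone, on to cytochrome c by complex III and to oxygen by complex IV. The protons pumped on the way drive ATP synthesis by complex V. Most subunits are nuclear genes whose products are imported and built together with a few subunits encoded by mitochondrial DNA, except complex II, which is wholly nuclear and also works as succinate dehydrogenase in the citric acid cycle. Nuclear respiratory factor 1 (NRF1) and ETS-family factors such as GABP are known to bind promoters of many of these genes.

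Of the 80 genes, 74 were tested, by 141 of the 163 probe sets. Tests were limited to probe sets with a Present call, that is, a signal above the mismatch probes, on all 3 arrays of at least 1 group, and each gene was represented by its brightest tested probe set. Changes are differences of mean log2 signal, Nup98::Nsd1 minus mock, and a gene was called where limma's moderated test gave an adjusted p (Benjamini and Hochberg, over all 20494 tested probe sets) under 0.05. Most tested genes passed this threshold, so the members' counts are read against that background.

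Subunit mRNAs were more often lower than higher in Nup98::Nsd1 cells, and most changes were small. Of the 74 tested member genes, 41 (55.4%) fell, 18 (24.3%) rose and 15 were not called. Among all 9641 tested genes 72.3% were called, 29.5% lower and 42.9% higher. The members' median log2 fold change was -0.16, against 0.12 over all tested genes. By probe set, 74 of 141 were lower and 34 higher, beside 27.6% and 42.3% of all tested probe sets. Changes of at least 2-fold were found in 3 members as deposited: Cox6a2 rose, and Sdhd and Atp5md fell, where 9.53% of all tested genes rose and 2.6% fell that far. The 3 arrays of each group did not overlap with those of the other in 61 of the 74 genes, beside 75.1% of all tested genes. Fewer cells of a type and less RNA per cell cannot be told apart in such bulk samples.

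The members' probe sets were bright, with a median signal of 7484 against 907 over all tested genes, and genes as bright as the members were more often called lower than tested genes as a whole. Among the 884 tested genes with signals of at least 4715, the lower quartile of the members, 82.1% were called, 46.8% lower and 35.3% higher, with a median log2 fold change of -0.071. The share of falls over all 74 tested members (55.4%) was nearer to that of equally bright genes than to that of all genes. The 884 genes include 55 of the members, with a median of -0.14. No test of the list was made. Replicates were tight: over the members the log2 signals of a group's arrays had a median SD of 0.055 (mock) and 0.043 (Nup98::Nsd1), where all tested genes gave 0.078 and 0.077.

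The direction of small changes depended on how the arrays were scaled. The deposited signals, already scaled to a common trimmed mean of 500, were also quantile normalized, centred on each array's 75th percentile, centred on the median of the tested probe sets, or scaled to the spiked hybridization controls (spike scaling). These moved the median of all tested genes from 0.12 to 0.011, -0.081, -0.054 and -0.25, and the members' counts from 18 higher and 41 lower to 24 higher and 36 lower, 7 higher and 53 lower, 7 higher and 50 lower, and 3 higher and 63 lower. The share of higher genes among the members' calls was 30.5% before and 40.0%, 11.7%, 12.3% and 4.55% after these steps in turn. Relative to the median of all tested genes, the members' median lay at -0.28 as deposited and at -0.12 with quantile normalization. Both centrings and spike scaling shift all genes of an array alike, so they leave this difference at -0.28 by construction. Of the 41 falls, 35 were called lower under all 5 scalings. Of the 18 rises, 3 were called higher under all 5, those of Cox6a2, Cox7a2l and Ndufc1. Both centrings and spike scaling lowered the change of every gene, so they could undo rises but only deepen falls. Only quantile normalization could undo a fall, so these counts do not compare how stable falls and rises are.

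The arrays differed between the groups in general measures too. Between 45.1% and 45.9% of probe sets were Present on the mock arrays and between 47.6% and 48.2% on the Nup98::Nsd1 arrays, while 140 to 144 of the 163 member probe sets were Present on each of the 6 arrays. For Actb, the signal of the 3' control probe set over the 5' one, a measure of RNA integrity and of labelling, was 1.15 to 1.20 in mock samples and at least 1.45 in every Nup98::Nsd1 sample, and that of Gapdh 0.742 to 0.770 and 0.799 to 0.843. The part of these differences in the members' changes was not tested. As for the cell type, 4 of the 9 myeloid progenitor markers on the array fell. Ms4a3 read -2.36, Mpo -1.88 and Prtn3 -0.92. Elane read -1.30 but was Present on no Nup98::Nsd1 array, so the size of its fall is uncertain. Il3ra, a chain of the interleukin-3 receptor, rose by 1.72, and Csf2rb read 0.17 with a second probe set called the other way. Ctsg was not called, and Kit and Cd34 were Present on no array. The summed signal of the 9 markers was 57281 to 60636 in mock and 31079 to 31856 in Nup98::Nsd1 samples. All 6 T and NK cell markers and all 6 fibroblast markers on the array were below the detection filter. So were 3 of 5 B cell markers, with Cd79a and Pax5 Present on no array. The B cell marker Cd79b was Present on every array, at signals of 269 to 325. Vpreb1 was Present on all 3 mock arrays and on no Nup98::Nsd1 array. Neither was called as deposited. Of 4 erythroid markers, Klf1 and Hba-a2 fell (-0.95 and -0.84), Epor was not called and Hba-a1 was Present on no array; their summed signal was 837 to 958 in mock and 591 to 648 in Nup98::Nsd1 samples.

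**Figure D1:**
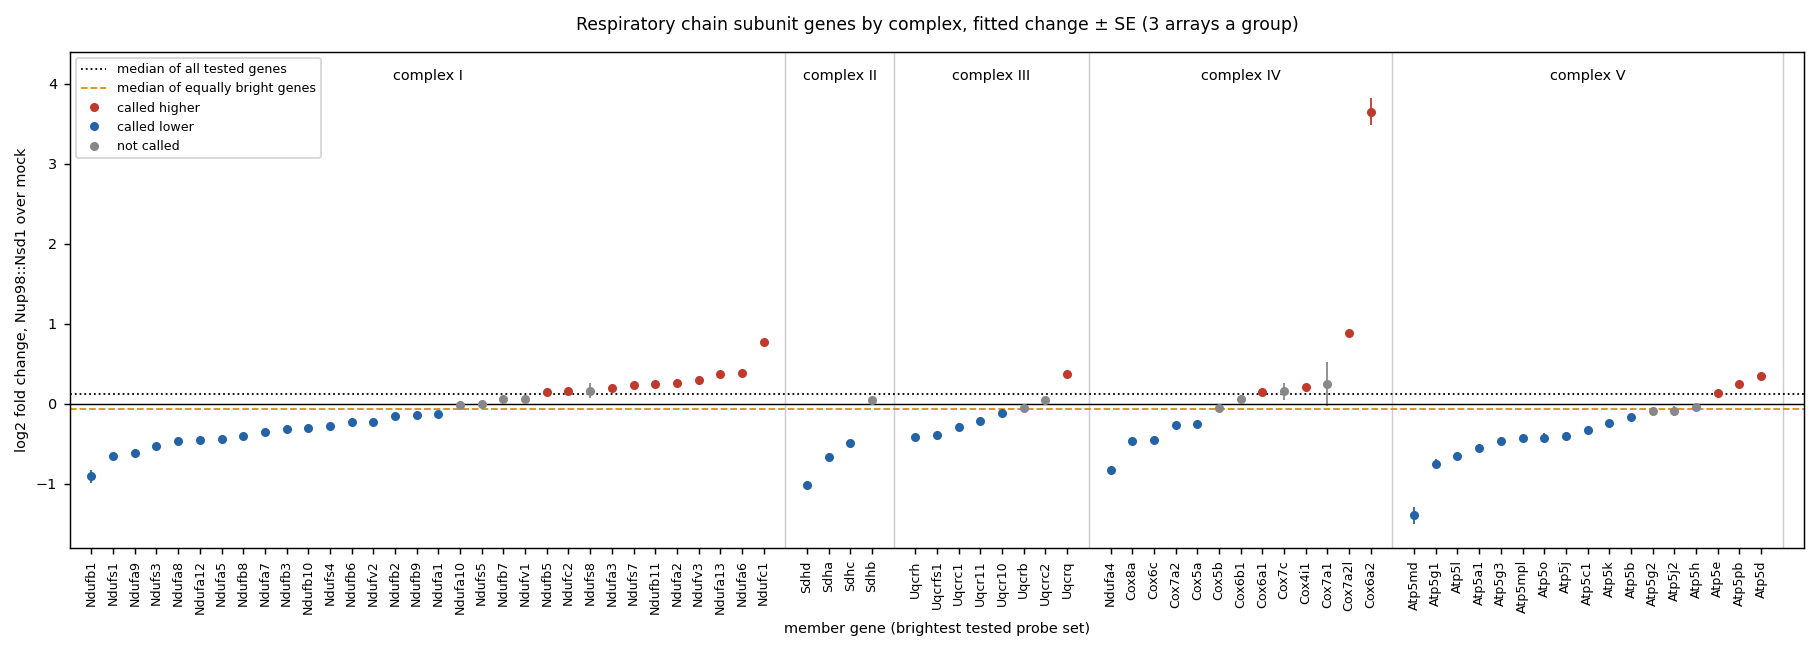
Log2 fold change (Nup98::Nsd1 minus mock, vertical axis, error bars SE of the limma fit, 3 arrays a group) of the 74 tested member genes, ordered within complexes I to V; red genes were called higher, blue lower and grey not called, and the lines mark the median of all tested genes and of equally bright genes. Falls are the majority of calls in each complex, complex II holds no rise, and Cox6a2 stands far above all other members at 3.65.

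The 100 bases directly upstream of the RefSeq transcription start (build GRCm38.p6, given 5' to 3' on the gene's own strand) are shown for 6 of the members that changed most in their complex among those with a RefSeq entry: the falls Sdhd, Uqcrh, Ndufa4 and Atp5md and the rises Cox7a2l and Ndufc1. Capitals mark matches to motifs searched on both strands, the NRF1-type motif (GCGCA, any base, GCGC) and the ETS-type motifs CCGGAAG and TTCCGG; the ETS-type motifs overlap, since CTTCCGG is the reverse complement of CCGGAAG.
Sdhd (chr9:50603850-50603949, minus strand): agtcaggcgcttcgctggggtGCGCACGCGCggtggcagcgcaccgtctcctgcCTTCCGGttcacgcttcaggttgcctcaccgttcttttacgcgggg
Uqcrh (chr4:116075071-116075170, minus strand): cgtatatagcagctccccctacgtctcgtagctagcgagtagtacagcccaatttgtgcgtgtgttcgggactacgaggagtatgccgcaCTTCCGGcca
Ndufa4 (chr6:11907451-11907550, minus strand): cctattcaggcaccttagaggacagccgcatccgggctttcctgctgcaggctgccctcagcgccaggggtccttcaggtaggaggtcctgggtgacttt
Atp5md (chr19:47090648-47090747, minus strand): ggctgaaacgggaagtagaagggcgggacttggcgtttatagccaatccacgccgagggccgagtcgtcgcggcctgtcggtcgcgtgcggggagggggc
Cox7a2l (chr17:83514334-83514433, minus strand): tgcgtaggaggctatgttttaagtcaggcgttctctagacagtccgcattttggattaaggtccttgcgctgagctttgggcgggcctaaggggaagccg
Ndufc1 (chr3:51408956-51409055, minus strand): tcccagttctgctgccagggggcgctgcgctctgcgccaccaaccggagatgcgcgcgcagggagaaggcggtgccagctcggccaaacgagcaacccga
Sdhd held both kinds of match in this stretch, Uqcrh an ETS-type match alone, and the other 4 no match.

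RefSeq gave a promoter for 66 of the 80 members. Within 250 bases upstream of the start, 11 of these 66 (16.7%) held the NRF1-type motif, beside 4.23% of the 27025 genes in the table. CCGGAAG was found in 12 members (18.2%; 7.83% of all) and TTCCGG in 20 (30.3%; 13.6% of all). The NRF1-type motif was in 6 of 35 members that fell, 1 of 14 that rose and 3 of 13 not called; for CCGGAAG the counts were 7, 2 and 3 of the same members, and for TTCCGG 11, 4 and 5. A match is a description of these letters and no measure of binding, and the shares were not tested against each other.

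Complex II, succinate dehydrogenase, had the lowest median of the 5 complexes: 3 of its 4 genes fell and 1 was not called, with a median log2 fold change of -0.58. The deepest fall was that of Sdhd, the small membrane anchor that helps to bind ubiquinone. Its brighter probe set gave 6081, 6204 and 6181 on the mock arrays and 2965, 2930.3 and 3237 on the Nup98::Nsd1 arrays. The groups were far apart, with every Nup98::Nsd1 array below every mock array. Sdhd was thus 2.02-fold lower in Nup98::Nsd1 cells (log2 fold change -1.02, SE 0.047, adjusted p = 6.37e-09), and its second probe set fell as well, by 0.79 on the log2 scale (adjusted p = 6.78e-06).

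Sdha, the flavoprotein that oxidises succinate, read 5843, 6079 and 6413 on the mock arrays and 3864, 3800.3 and 3895 on the Nup98::Nsd1 arrays with its brighter probe set. These arrays did not overlap, and the difference was 1.59-fold (log2 fold change -0.66, SE 0.044, adjusted p = 1.15e-07). The second tested probe set of Sdha did not show it: its signals of 3041, 3286 and 3556 in mock and 3439, 3292 and 3466 in Nup98::Nsd1 samples overlapped (log2 fold change 0.048, adjusted p = 0.471). Sdhc, the larger anchor, went from 4091, 3920.1 and 4064 to 2813, 2779 and 2956 (log2 fold change -0.50, SE 0.044, adjusted p = 1.15e-06). Its dimmer probe set read -0.29 and was not called (adjusted p = 0.057), with overlapping groups.

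Sdhb, the iron-sulfur subunit between the flavin and the anchors, was the exception. It gave 5939, 5977 and 5958 on the mock arrays and 6138, 6247 and 6120.0 on the Nup98::Nsd1 arrays. The Nup98::Nsd1 arrays all lay above the mock arrays, but by little, and Sdhb was not called (log2 fold change 0.050, adjusted p = 0.243); it was called higher at 0.20 with quantile normalization, and lower at -0.15, -0.12 and -0.32 when centred on the 75th percentile, centred on the median and spike scaled. With their brightest probe sets the falls of Sdhd, Sdha and Sdhc were called under each of these scalings, of which only quantile normalization could undo a fall. With quantile normalization the second probe set of Sdha was called higher.

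**Figure D2:**
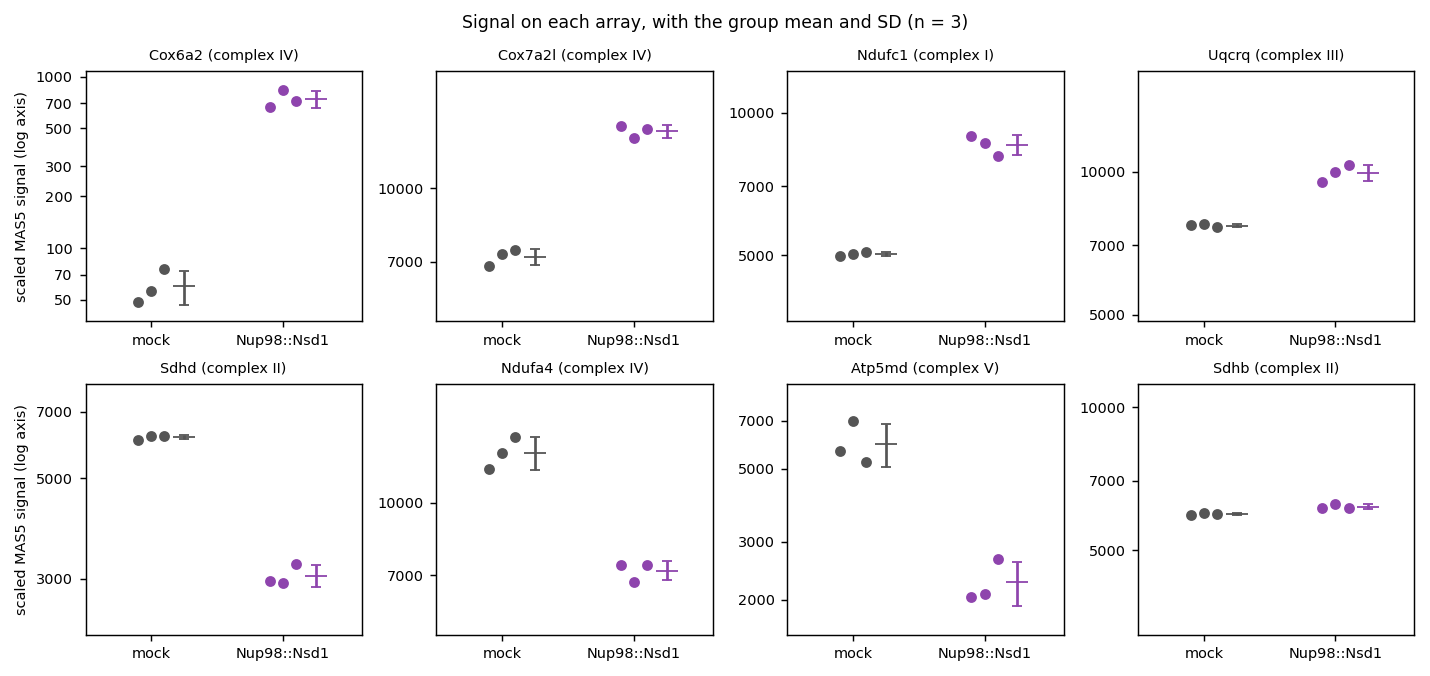
Scaled MAS5 signal on each array (log axis) of 8 members, 3 mock and 3 Nup98::Nsd1 arrays each, with the group mean and SD beside the points. In Cox6a2, Cox7a2l, Ndufc1 and Uqcrq every Nup98::Nsd1 array lies above every mock array, in Sdhd, Ndufa4 and Atp5md every one lies below, and the groups of Sdhb are close, at 5939 to 5977 and 6120.0 to 6247.

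In complex I, 17 of 32 tested genes fell, 10 rose and 5 were not called, with a median log2 fold change of -0.14. Falls and rises were found in both arms of the complex, beside 46.8% lower and 35.3% higher among equally bright genes. In the matrix arm, which carries the flavin and the iron-sulfur clusters, 8 of 14 genes fell and 4 rose (median -0.26); in the membrane arm, which pumps protons, 9 of 18 fell and 6 rose (median -0.076). With quantile normalization the complex had 14 higher and 13 lower genes, so that falls no longer prevailed; with 75th percentile centring it had 3 higher and 21 lower.

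The core subunits of the matrix arm, which do the electron transfer, split by their brightest probe sets. Ndufs1 and Ndufs3 fell, as did Ndufv2, Ndufs7 rose, and Ndufs8 and Ndufv1 were not called. Of 3 tested probe sets each, 1 was called lower for Ndufv1 and 1 for Ndufv2, and 1 of the 2 of Ndufs7 was called. Ndufs1, which holds several of the iron-sulfur clusters, gave 3717, 3865 and 3714 on the mock arrays and 2462, 2377 and 2317 on the Nup98::Nsd1 arrays. The groups were clearly apart (log2 fold change -0.66, SE 0.044, adjusted p = 1.19e-07). Ndufs3 went from 4723, 4973 and 5079 to 3295, 3325 and 3578, again without overlap (log2 fold change -0.54, SE 0.048, adjusted p = 1.34e-06). Ndufs8 is less certain: its brightest probe set spread from 7019 to 9722 within the Nup98::Nsd1 group and was not called (0.16, adjusted p = 0.132), while 2 of its other 4 tested probe sets were called higher and 1 lower.

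Among accessory subunits, which surround the core and stabilise it, Ndufb1 fell most. This small membrane-arm protein gave 969.6, 1055 and 976 on the mock arrays and 543, 479 and 582 on the Nup98::Nsd1 arrays. All Nup98::Nsd1 arrays lay far below, a 1.88-fold difference (log2 fold change -0.91, SE 0.082, adjusted p = 1.51e-06). Ndufa9, a matrix-arm subunit near the ubiquinone site, had signals of 6654 ± 193 in mock and 4349.6 ± 119 in Nup98::Nsd1 cells (SD, n = 3 each), with a log2 fold change of -0.61 (adjusted p = 1.40e-07). Ndufa8, on the intermembrane side, fell by 0.47 on the log2 scale (adjusted p = 6.29e-06). The other 12 falls of the complex lay between -0.45 (Ndufa12) and -0.14 (Ndufa1). Ndufa5, chosen here after its values were seen, read -0.45 with the brighter probe set and -1.19 with the other, both called.

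Ndufc1, another small membrane-arm subunit, moved the other way and was the largest rise of the complex. It read 4982, 5026 and 5074 on the mock arrays and 8924, 8619.5 and 8091 on the Nup98::Nsd1 arrays. Every Nup98::Nsd1 array exceeded every mock array, by 1.70-fold on average (log2 fold change 0.76, SE 0.044, adjusted p = 3.66e-08). The second probe set rose by 0.43 (adjusted p = 7.90e-06), and the rise was called under all 4 other scalings, down to 0.40 with spike scaling.

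The next rises of complex I were smaller and rested on the scaling. Ndufa6 and Ndufa13 (GRIM-19) read 0.39 and 0.37 (adjusted p = 4.04e-06 and 1.22e-05), held with both centrings and with quantile normalization, but were 0.022 and 0.00067, not called, with spike scaling. Ndufv3 and Ndufa2 read 0.29 and 0.26 (adjusted p = 0.000649 and 0.000561) and were called higher with quantile normalization too; neither was called with the centrings (0.094 and 0.060 at the 75th percentile, 0.12 and 0.087 at the median), and with spike scaling they turned to -0.076 and -0.11. Ndufb11, Ndufs7, Ndufa3, Ndufc2 and Ndufb5, the other 5 rises, lay between 0.15 and 0.24 and were called higher with quantile normalization as well; after either centring none of the 5 was called, and with spike scaling all 5 were called lower, between -0.12 and -0.22. The only member of the complex below the detection filter was Ndufb4, whose single-symbol probe set was Present on no mock array and on 2 of the Nup98::Nsd1 arrays.

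In complex III, which hands electrons from ubiquinol to cytochrome c, 5 of 8 genes fell, 1 rose and 2 were not called (median -0.17). The falls were modest. Uqcrh, the hinge protein beside cytochrome c1, gave 9660.4, 9475 and 9566 on the mock arrays and 7466, 6844 and 7210.2 on the Nup98::Nsd1 arrays. No array of one group reached the other (log2 fold change -0.42, SE 0.042, adjusted p = 3.74e-06), and its second probe set fell too. Uqcrfs1, the Rieske iron-sulfur protein that takes up the electrons, read 6658, 6972 and 7072 on the mock arrays and 5421, 5062 and 5313 on the Nup98::Nsd1 arrays. Here too the groups were apart (log2 fold change -0.39, SE 0.043, adjusted p = 8.20e-06).

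Uqcrc1, one of the large core proteins, fell by 0.29 on the log2 scale (adjusted p = 0.000138). Its partner Uqcrc2 was not called with its brightest probe set, at 0.041 (adjusted p = 0.359), while the other was called higher at 0.28. The small subunits Uqcr11 and Uqcr10 read -0.22 and -0.12 (adjusted p = 0.00153 and 0.0314); with quantile normalization neither was called, at -0.090 and 0.018, the second with its sign turned. For Uqcr10 the other 2 probe sets were called higher, at 0.38 and 0.57, so no direction is given for this gene.

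Uqcrq, the ubiquinone-binding subunit VII, was the only rise. Its signals were 7708, 7759 and 7646 on the mock arrays and 9531, 9999 and 10339 on the Nup98::Nsd1 arrays. The 3 Nup98::Nsd1 arrays lay above all mock arrays (log2 fold change 0.37, SE 0.041, adjusted p = 8.53e-06); the rise held with both centrings and with quantile normalization but was 0.0038, not called, with spike scaling. Its second tested probe set read 0.35 and was not called.

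Complex IV, cytochrome c oxidase, held the largest rises and a large fall at once. Of 13 tested genes 5 fell, 4 rose and 4 were not called, with a median log2 fold change of 0.063; the median was -0.10 with quantile normalization and -0.30 with spike scaling. Among the 10 subunits of general tissue distribution 5 fell and 2 rose (median -0.15). Of 7 isoforms known from particular tissues such as striated muscle, lung or testis only Cox6a2 and Cox7a1 passed the detection filter.

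Cox6a2 encodes the isoform of subunit VIa known from heart and skeletal muscle; Cox6a1 encodes the general one. The brighter probe set of Cox6a2 gave 48.5, 56.2 and 75.01 on the mock arrays and 667, 833 and 724 on the Nup98::Nsd1 arrays. It was called Present on 2 of the 3 mock arrays and on all 3 Nup98::Nsd1 arrays, so it passed the detection filter through the group where it is high, and the groups lay an order of magnitude apart. The rise was 12.5-fold (log2 fold change 3.65, SE 0.171, adjusted p = 7.67e-09) and was called under all 4 other scalings, at 3.28 or more. The second probe set read 24.5, 15.9 and 19.7 on the mock arrays and 186, 156 and 177 on the Nup98::Nsd1 arrays. This probe set read 8.73-fold higher in Nup98::Nsd1 cells on means of log2 signals. It was Present on no mock array, so the ratio rests on undetected mock signals and its size is uncertain.

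Cox6a1 moved little: its brightest probe set read 0.15 (adjusted p = 0.0135) and its other one -0.16 (adjusted p = 0.00953), so the gene has no settled direction, and the first turned to -0.045, -0.019 and -0.21 when centred on the 75th percentile, centred on the median and spike scaled. Cox7a1, the muscle isoform of subunit VIIa, had low, overlapping signals of 46.5, 44.4 and 53.3 in mock and 69.9, 53.5 and 48.9 in Nup98::Nsd1 samples and was not called. The isoform genes Cox6b2, Cox7b2 and Cox8b were Present on no array. Cox4i2 was Present on 2 mock arrays and 1 Nup98::Nsd1 array, and Cox8c on 1 mock array.

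The measured genes beside Cox6a2 in RefSeq's order, looked at after its value was seen, did not share a rise of that size. On one side Itgam, the integrin alpha M chain of myeloid cells, read 914, 1053 and 980.2 on the mock arrays and 1048, 1052 and 1004 on the Nup98::Nsd1 arrays. These overlapped, and Itgam was not called (log2 fold change 0.077, adjusted p = 0.314). Itgax was Present on no array. On the other side 9130023H24Rik was not called (0.23, adjusted p = 0.210), with overlapping groups, and Armc5 as deposited rose by 0.64 (adjusted p = 0.000384), from signals of 375, 304 and 377 to 584, 577 and 479.8.

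Cox7a2l, a relative of subunit VIIa that joins complexes III and IV in supercomplexes, rose on all of its 3 probe sets. Its brightest read 6847, 7252 and 7402 on the mock arrays and 13549, 12742 and 13312 on the Nup98::Nsd1 arrays. The Nup98::Nsd1 arrays all lay well above the mock arrays (log2 fold change 0.88, SE 0.044, adjusted p = 1.17e-08). The other probe sets rose by 1.09 and 1.10 (adjusted p = 9.62e-10 and 2.08e-09), and the rise of the brightest was called under all 4 other scalings, between 0.52 and 1.01.

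Ndufa4 was named as a subunit of complex I and is now placed in complex IV, where it is counted here. It fell most of the 13 genes, from 11783, 12748 and 13816 on the mock arrays to 7339, 6781 and 7354 on the Nup98::Nsd1 arrays, with no overlap. The difference was 1.78-fold (log2 fold change -0.83, SE 0.058, adjusted p = 1.66e-07) and was called under every scaling tried. Of the other scalings only quantile normalization made the fall smaller, to -0.72. Counted in complex I instead, it would bring that complex to 18 falls of 33 genes. Its paralogs Ndufa4l2 and AA467197 (also known as Nmes1), chosen after the value of Ndufa4 was seen, were Present on no array.

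Among the other general subunits, Cox8a and Cox6c fell by 0.46 and 0.45 on the log2 scale (adjusted p = 1.98e-06 and 2.85e-06), each on both tested probe sets. Cox6c gave 17688, 18896 and 19528 on the mock arrays and 13532, 13561 and 13934 on the Nup98::Nsd1 arrays, which do not overlap. Cox7a2 and Cox5a fell less, by 0.27 and 0.26 (adjusted p = 0.000176 and 5.54e-05), on 2 of 2 and 3 of 3 probe sets. Cox4i1, the general form of subunit IV, read 0.20 (adjusted p = 0.000455) and was called higher with quantile normalization, was not called at 0.0062 and 0.033 with the centrings and was called lower at -0.16 with spike scaling. Cox5b, Cox6b1 and Cox7c were not called with their brightest probe sets, at -0.050, 0.063 and 0.15. However, 2 of the 4 tested probe sets of Cox5b and 1 of the 2 of Cox6b1 were called lower.

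In complex V, the ATP synthase, 11 of 17 genes fell, 3 rose and 3 were not called (median -0.33). Among equally bright genes 46.8% were called lower, and among all tested genes 29.5%. No part of the enzyme was tested against these shares. Falls were found in every part of the enzyme: the c ring in the membrane, which turns with the proton flow (2 of 3), the catalytic F1 head (3 of 5), the peripheral stalk that holds the head (2 of 4) and the small membrane subunits (4 of 5).

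Atp5md, a small membrane protein also called DAPIT that is bound to the dimeric enzyme, fell most of all 74 members. Its only probe set gave 5682, 6969.6 and 5239 on the mock arrays and 2039, 2088 and 2661 on the Nup98::Nsd1 arrays. The mock arrays spread more than those of most members, yet the highest Nup98::Nsd1 array lay far below the lowest mock array. The fall was 2.64-fold (log2 fold change -1.40, SE 0.11, adjusted p = 4.86e-07). Atp5l, subunit g of the membrane part, read 7577, 7447 and 7062 on the mock arrays and 4728, 4413 and 4947 on the Nup98::Nsd1 arrays, without overlap (log2 fold change -0.65, SE 0.050, adjusted p = 3.76e-07). Atp5mpl and Atp5k fell by 0.43 and 0.24. Atp5j2 was not called with its brightest probe set (-0.091), though 1 of its 3 tested probe sets was called lower, at -0.35.

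The c subunit is made from 3 genes that encode the same mature protein. Atp5g1 gave 7209, 7842 and 8286 on the mock arrays and 4404, 4711 and 4720.4 on the Nup98::Nsd1 arrays. The groups were apart (log2 fold change -0.75, SE 0.054, adjusted p = 2.20e-07). Atp5g3 fell from 16847, 18412 and 19530.2 to 13258, 12958 and 13246 (log2 fold change -0.47, SE 0.052, adjusted p = 7.37e-06). Atp5g2 was not called with its brightest probe set (-0.093, adjusted p = 0.114), whereas a dim second probe set was called higher (0.90, adjusted p = 0.000173).

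In the F1 head the falls were those of the alpha, gamma and beta subunits. Atp5a1, the alpha subunit, went from 14557, 15168 and 15968 to 10537, 9839.9 and 10659.9 without overlap (log2 fold change -0.56, SE 0.047, adjusted p = 8.72e-07). Atp5b, the catalytic beta subunit, fell by 0.16 (adjusted p = 0.00243). Atp5c1, the gamma subunit of the rotor, read -0.33 with its bright probe set and 0.89 with a dim one, both called. The small central-stalk subunits went the other way as deposited: Atp5d, the delta subunit, read 0.34 (adjusted p = 0.000112) and turned to -0.020, not called, with spike scaling, and Atp5e, the epsilon subunit, read 0.14 (adjusted p = 0.0141) and turned to -0.059, -0.033 and -0.23 when centred on the 75th percentile, centred on the median and spike scaled. In the peripheral stalk Atp5o and Atp5j fell by 0.43 and 0.40 (adjusted p = 2.21e-05 and 1.78e-05). Atp5pb read 0.24 (adjusted p = 0.000104), was called higher with quantile normalization, was not called with the centrings (0.048 and 0.074) and was called lower at -0.12 with spike scaling.

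Side by side, the complexes' medians ran from -0.58 in complex II through -0.33 in V, -0.17 in III and -0.14 in I to 0.063 in IV, beside 0.12 over all tested genes. Both centrings and spike scaling shift all genes of an array alike and cannot change this order. With quantile normalization complex II kept the lowest and complex V the next lowest median, whereas the order of I, III and IV changed. With the mean of all tested probe sets of a gene in place of the brightest, the medians were -0.35 in II, -0.27 in V, -0.25 in III, -0.075 in I and -0.034 in IV. Without _s_at and _x_at probe sets that of complex IV was -0.075 and that of V -0.40. Without Cox7a2l and the tissue isoforms Cox6a2 and Cox7a1, complex IV had a median of -0.15 as deposited, below that of complex I (-0.14). Complexes II and III hold few genes, members are not replicates of a condition, and the differences between complexes were not tested. Each member's log2 signal was also set against the mean of the mock arrays and the median taken within each complex. This read -0.59, -0.61 and -0.55 for complex II on the 3 Nup98::Nsd1 arrays, and -0.30, -0.34 and -0.34 for complex V. The 3 Nup98::Nsd1 arrays lay close together in both.

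**Figure D3:**
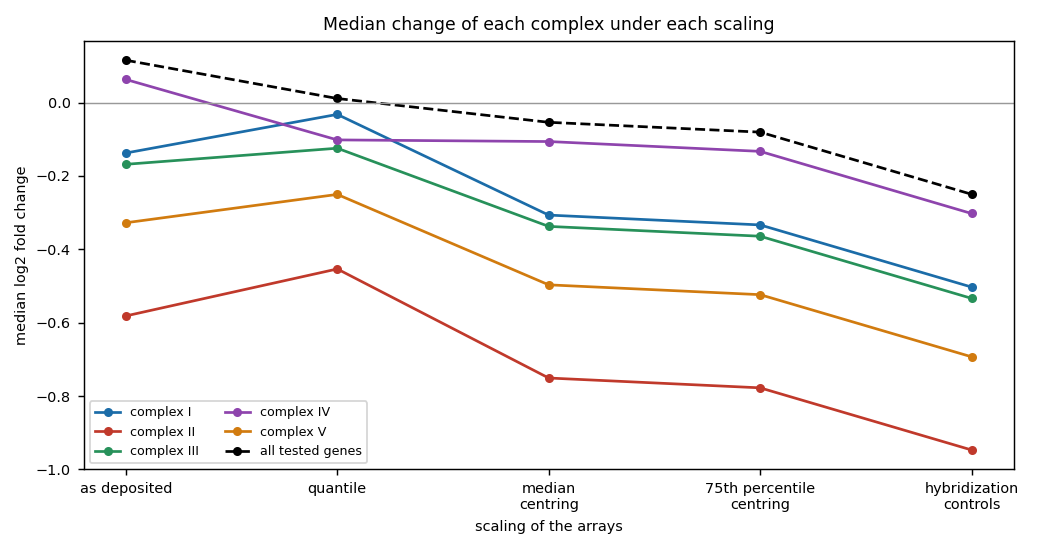
Median log2 fold change (vertical axis) of the tested genes of each complex and of all tested genes (dashed) under the deposited scaling and 4 others (horizontal axis); the lines only link values of one complex. Complex II is lowest and complex V next lowest throughout, and the medians of all 5 complexes lie below that of all tested genes in each scaling. The centrings and spike scaling shift all genes alike, so only quantile normalization could change these orders.

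Several probe sets of a gene did not always tell the same story. Of 45 member genes with more than 1 tested probe set, 12 had all of them called lower, 5 all called higher, 20 had some called in 1 direction and others not called, 1 had none called, and 7 had calls in both directions: Atp5c1, Cox6a1, Ndufb11, Ndufb9, Ndufc2, Ndufs8 and Uqcr10. Suffixes that mark probes shared with other sequences (_s_at, _x_at) are carried by 46 of the 163 member probe sets; without these, 3 genes had calls in both directions, Ndufb11, Ndufb9 and Uqcr10. Ndufb9, for example, read -0.14 and 0.15 (adjusted p = 0.0199 and 0.00665), Ndufb11 0.24, 0.22 and -0.14, and Ndufc2 0.15, -0.23 and -0.20. The number of such genes was 2, 3, 4 and 2 with quantile normalization, the centrings (75th percentile, then median) and spike scaling, and Atp5c1 was among them in all but the first, where Sdha and Ndufv2 were the genes. Uqcrb, chosen after its values were seen, read -0.060, not called, with its brightest probe set and -0.72 (adjusted p = 5.93e-07) with the other.

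**Figure D4:**
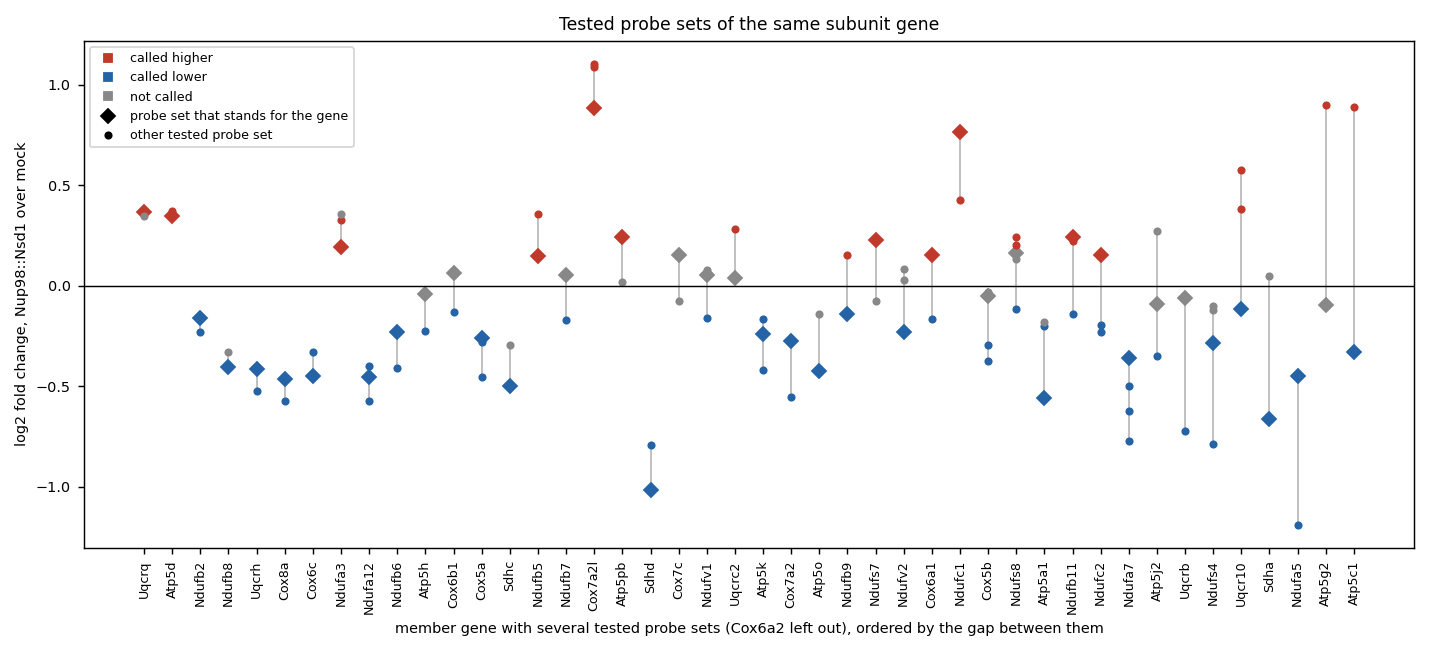
Log2 fold change (vertical axis) of each tested probe set of the member genes with several, Cox6a2 left out for scale, ordered by the gap between probe sets; diamonds stand for the gene in the counts and dots are its other probe sets, red called higher, blue lower, grey not called. The widest gap is that of Atp5c1, from -0.33 to 0.89, while the 3 probe sets of Cox7a2l lie together between 0.88 and 1.10.

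Partners of the chain outside the naming pattern were read from lists of textbook members. Cycs, the cytochrome c that carries electrons from complex III to IV, fell by 0.80 on the log2 scale: it gave 16668, 17310.3 and 17060.4 on the mock arrays and 10039.8, 10008 and 9301 on the Nup98::Nsd1 arrays, with no overlap (SE 0.042, adjusted p = 1.94e-08). Cyc1, the cytochrome c1 of complex III, fell by 0.28. Ndufab1, the mitochondrial acyl carrier protein that also sits in complex I, read -0.35 (adjusted p = 4.97e-05) with its brightest probe set, but a dim one was called higher at 0.72 (adjusted p = 0.00333) and the other 2 were not called, so no direction is given. Atpif1, the inhibitor of ATP synthase, read 0.33 (adjusted p = 9.42e-06) and was -0.040, not called, with spike scaling.

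Assembly factors, which build the complexes without staying in them, were mostly lower too, except those of complex III. Among all tested genes 29.5% were called lower and 42.9% higher. For complex I, 8 of 14 fell and 3 rose (median -0.29), of which 1 or none was called higher under the other scalings; Ndufaf4, Ndufaf1 and Ndufaf7 read -0.86, -0.54 and -0.55 (adjusted p = 2.25e-06, 3.21e-06 and 6.40e-06). For complex II, Sdhaf2, which attaches the flavin to Sdha, fell by 0.66 (adjusted p = 1.15e-06) with its brighter probe set and was not called with the other (-0.12), Sdhaf4 and Sdhaf3 fell less, and Sdhaf1 read 0.41 (adjusted p = 5.79e-05) but 0.042, not called, with spike scaling. For complex IV, 13 of 18 fell and 4 rose (median -0.28), with Cox11, a copper-delivery protein, at -0.93 (adjusted p = 1.21e-06), Cox18 at -0.60 (adjusted p = 1.23e-06) and Coa3 at -0.55 (adjusted p = 3.18e-07); with both centrings and spike scaling none of the list was higher. All 3 factors of complex V fell: Tmem70 by 0.32, Atpaf2 by 0.43 and Atpaf1 by 0.26, though the dimmer probe set of Atpaf1 was not called (0.16).

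The complex III assembly list held large changes both ways: of 5 tested factors Ttc19 rose by 1.05 (adjusted p = 9.04e-07) and Uqcc3 by 0.78 (adjusted p = 2.30e-07), called under every scaling, while Uqcc1 fell by 0.83 (adjusted p = 1.23e-05) and Uqcc2 by 0.19. Ttc19 gave 257, 288 and 279 on the mock arrays and 563, 575 and 565 on the Nup98::Nsd1 arrays. The groups did not overlap. The other 2 tested probe sets of Ttc19 were not called, at -0.073 and -0.24. Lyrm7 was Present on no array. Whether this list differs from the other assembly lists was not tested.

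Among 16 regulators of the nuclear genes and of mitochondrial DNA, 15 were tested, 5 fell and 5 rose (median -0.079); with quantile normalization 2 were called higher, with either centring 1 and with spike scaling none. Tfb2m, a factor that starts transcription of mitochondrial DNA, gave 1889.8, 1823 and 1667 on the mock arrays and 945, 883 and 859 on the Nup98::Nsd1 arrays. Its log2 fold change was -1.001, the largest change of the list (SE 0.064, adjusted p = 8.25e-08). Tfam, which packages mitochondrial DNA, and Pprc1, a coactivator related to PGC-1, fell by 0.48 and 0.49 (adjusted p = 8.90e-06 and 1.77e-05). Nrf1 itself was not called as deposited (-0.079, adjusted p = 0.419) and was called lower in the 4 other scalings, between -0.25 and -0.44, while 1 of its 3 dimmer probe sets was called higher as deposited (0.60, adjusted p = 0.0354); Gabpa fell by 0.30. Yy1, the other fall, read -0.28, with a dimmer probe set called higher at 0.68. The 5 rises were Tfb1m (0.40), Ppargc1b (0.36), Twnk (0.31), Gabpb1 (0.26) and Esrra (0.18). In Tfb1m, Gabpb1 and Esrra the dimmer probe set was not called. Ppargc1a was Present on no array.

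The citric acid cycle, which feeds NADH and succinate to the chain, was listed together with the pyruvate dehydrogenase genes Pdha1, Pdhb and Dlat. This list had 10 of 15 genes lower and 4 higher, with a median of -0.35, beside 29.5% lower and 42.9% higher among all tested genes. The rises were Pdha1 (0.61), Idh3g (0.23), Pdhb (0.15) and Cs (0.11), and the other 2 probe sets of Cs were called lower. After either centring and with spike scaling 1 gene was called higher. Idh3a, the catalytic subunit of the NAD-dependent isocitrate dehydrogenase, gave 8034, 7948 and 7774 on the mock arrays and 3466, 3446 and 3365 on the Nup98::Nsd1 arrays. It fell by 1.21 (SE 0.039, adjusted p = 5.07e-10), and the groups were far apart. Suclg2 and Sucla2, subunits of the succinate-forming succinyl-CoA ligases, fell by 0.82 and 0.58 (adjusted p = 2.03e-08 and 2.26e-07). Of the subunits encoded by mitochondrial DNA the array named 1, ND5 of complex I. It rose, from 9629, 10239 and 10651 to 20883, 21758 and 19474 (log2 fold change 1.02, adjusted p = 1.30e-08), and was called higher under every scaling tried.

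**Figure D5:**
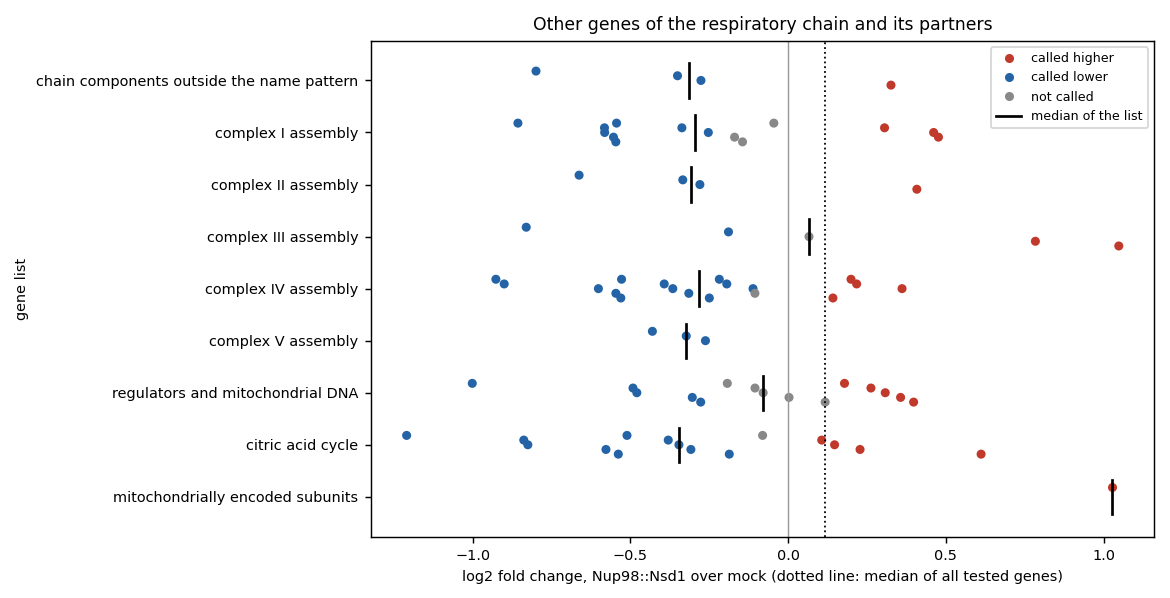
Log2 fold change (horizontal axis, Nup98::Nsd1 minus mock) of each tested gene in 9 lists of chain partners, 1 point a gene, red called higher, blue lower, grey not called; black bars are list medians and the dotted line is the median of all tested genes, 0.12. Most lists lie left of 0, the single mitochondrially encoded gene lies at 1.02, and Idh3a at -1.21 is the lowest point.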

How the data were processed

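RNA from 3 mock and 3 Nup98::Nsd1 samples of 32D cells was labelled with a 3' in vitro transcription kit and hybridised to 1 array each, per the labels' protocols. Per the submitters' processing notes the authors used MAS5. Per the file headers the deposited values are scaled intensities (linear) with a detection p-value and a call; each array's 2% trimmed mean was 500.003. The authors' deposited series matrix held the same intensity values (largest relative difference 5e-06).

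Signals under 1 were set to 1 (2 of the members' signals) and taken to log2. Symbols came from the platform annotation of 2016: 34945 probe sets had 1 symbol, 932 several, 9160 none listed. Membership used these symbols. For the grouping of probe sets into genes, symbols were updated to those of RefSeq through the gene identifier, for 34741 probe sets. Of 45101 probe sets, 64 controls were left out. Probe sets Present on all 3 arrays of a group were fitted with limma 3.58.1 in R 4.3.3 (lmFit, eBayes with intensity trend), without a replicate block; promoters were searched with Python 3.11.15. The script was tested on simulated data. Named genes were all of complex II, up to 5 rises and 5 falls of each other complex, genes with opposite calls, and the 3 smallest p of each list. Members and lists were chosen with earlier results of these data known. The precision is limited by 3 arrays a group. Alternatives were pseudocounts of 16 and 64, other filters, scalings, weights, probe set rules, membership by updated symbols, a replicate block and leaving out each array. The alternative without _s_at and _x_at probe sets was added after the data were seen.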

Additional observations from a re-analysis of the deposited data

Results flagged for a closer look

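1 probe set outside the members carried a signal that no comparison above uses. It is annotated to 2 symbols, Ndufb2 and Adck2, and was therefore no member. The probe set was called higher in Nup98::Nsd1 cells (log2 fold change 0.94, SE 0.281, adjusted p = 0.0104 in limma's fit), but the signals were low and the groups overlapped, at 140.5, 66.0 and 65.2 on the mock arrays and 168, 183 and 139.7 on the Nup98::Nsd1 arrays. The single-symbol probe sets of Ndufb2 that were tested were both called lower.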

How the results depend on the processing

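The number of called genes, both directions together, stayed within 1.5 times over all members and in each complex under all alternatives run. Counts by direction moved more: member genes higher numbered 7, 7 and 3 in place of 18 when centred on the 75th percentile, centred on the median and spike scaled, member genes lower numbered 63 in place of 41 with the last. Under these 3 settings the higher genes went from 10 to 3, 3 and 1 in complex I, from 4 to 2 each time in complex IV and from 3 to 1, 1 and 0 in complex V, and with spike scaling the lower genes went from 17 to 27 in complex I and from 5 to 9 in complex IV. The background itself went from 42.9% higher and 29.5% lower to 21.1% and 50.4% with spike scaling, and equally bright genes were lower in 46.8%. Averaging probe sets, or leaving out _s_at and _x_at ones, moved complexes III and V by up to 2 rises. Without _s_at and _x_at probe sets complex I had 7 rises among 29 tested genes, in place of 10 among 32. Leaving out 1 array gave 56 to 63 called member genes (17 to 19 higher, 39 to 44 lower). Pseudocounts, detection filters, the series matrix, array weights, no intensity trend and membership by updated symbols left the counts between 53 and 59 member genes. Of the 42 named members, 24 kept their direction and call in every alternative that tested them; Cox6a2 was not tested where Present calls on all 6 arrays were asked for.

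Among named members called before or after the change, signs turned as follows. With 75th percentile centring Atp5e read -0.059, Cox6a1 -0.045, Ndufc2 -0.042 and Sdhb -0.15; with median centring they read -0.033, -0.019, -0.015 and -0.12. With spike scaling Atp5d read -0.020, Atp5e -0.23, Atp5pb -0.12, Cox4i1 -0.16, Cox6a1 -0.21, Ndufa2 -0.11, Ndufb11 -0.12, Ndufc2 -0.21, Ndufv3 -0.076 and Sdhb -0.32. Ndufs8 read -0.033, -0.0059 and -0.20 under both centrings and spike scaling, not called in any of these 3, and was called higher at 0.27 with quantile normalization. With quantile normalization Uqcr10 read 0.018. Averaging all tested probe sets of a gene gave 0.28 for Atp5c1, -0.0071 for Cox6a1, 0.0059 for Ndufb9, -0.091 for Ndufc2 and 0.28 for Uqcr10. Without _s_at and _x_at probe sets, an alternative chosen after seeing the data, Atp5c1 read 0.89 and Ndufc2 -0.23, and 12 of 69 member genes were higher and 42 lower; both of these use another probe set by construction. The causes of the other turns were not tested.

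Of the 59 called members, 5 lost the call when 1 array was left out and none turned: Uqcr10 was not called without any 1 Nup98::Nsd1 array or mock replicate 3, Ndufb9 without Nup98::Nsd1 replicate 1 or 2 or mock replicate 3, Cox6a1 without Nup98::Nsd1 replicate 1 or mock replicate 2, Ndufb2 without mock replicate 2, and Atp5e without Nup98::Nsd1 replicate 3. Ndufs8 was called higher, at 0.28, without Nup98::Nsd1 replicate 3, and Atp5g2, Atp5j2, Cox5b and Uqcrb were called lower without 1 array or another. With the replicate number as a block, 19 member genes were higher and 41 lower, and Ndufs8 was called at 0.16. Same-numbered arrays showed no shared deviation across probe sets, at r = -0.017, -0.011 and 0.021. This cannot show whether the samples were prepared in pairs, and only the unblocked fit is given above.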

Other observations

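Probe sets that the annotation gives to a subunit and to a near copy were no members. Those of Ndufb4 with Ndufb4b and Ndufb4c gave log2 fold changes of -0.37 and -0.60 (adjusted p = 7.06e-05 and 3.54e-06), with no overlap of the groups. One for Ndufa11 and Ndufa11b read -0.22 (adjusted p = 0.000689), its second one was not called at 0.36, and one for Ndufs6 and Ndufs6b read -0.21 (adjusted p = 0.000744). The probe set of Ndufs5 with a pseudogene was not called, at 0.023, as was the single-symbol probe set of Ndufs5. Signals of a gene and of its copy cannot be told apart in these probe sets.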
